A study of Arabidopsis thaliana with 6 samples.

Results

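CC-type glutaredoxins are a plant-specific class of small oxidoreductases, and 8 genes of this class around AT2G47880 were examined in Arabidopsis seedlings that over-express the rice homeobox gene OsHOX24. The genes were AT2G47880, AT2G47870, AT3G62950, AT3G62930, AT1G03020, AT1G06830, AT5G11930 and AT3G21460. The starting point, AT2G47880, was chosen by its log2 difference between genotypes on these arrays, and the others were taken with it as genes of its class. A probe set naming a single gene was found for 6 of the 8, among 13286 genes that had one, whereas AT2G47870 and AT3G21460 were not analysed here. A further 11 of 13 listed genes of the same class were measured, so 17 of 21 CC-type genes could be described. Class membership follows general knowledge of the family and not the platform table.

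Total RNA of whole 10-day-old seedlings of ecotype Columbia was hybridized to Affymetrix GeneChip arrays, with 3 arrays of wild-type (WT) seedlings and 3 of the transgenic seedlings, grown on MS medium without stress. The transgenic seedlings carried the rice coding sequence behind the CaMV 35S promoter, which is active in most tissues, and came from 1 homozygous line, HZIP1-2.3, so line and transgene cannot be told apart. The paper calls the arrays of a genotype independent biological replicates. The values are MAS5 signals, in which a probe set is read against its mismatch probes and each array is scaled, on the log2 scale, so a difference of 1 is 2-fold.

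Glutaredoxins use glutathione to reduce disulfides or to carry iron-sulfur clusters. The CC-type proteins, named after a pair of cysteines in the active site, bind TGA transcription factors in the nucleus. In Arabidopsis, members of the class act in petal and anther development, in the antagonism between salicylic acid and jasmonic acid, and as signals of nitrogen demand that travel from shoot to root, and transcripts of several others respond to nitrate.

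AT2G47880 was the 1 member whose signals did not overlap between genotypes. Its log2 signal was 8.26, 7.09 and 7.52 in WT replicates 1 to 3 and 6.96, 5.67 and 5.78 in the transgenic replicates 1 to 3. On the linear scale this is 307, 137 and 183 in WT and 125, 51 and 55 in the transgenic line. Every transgenic array was thus below every WT array, but the lowest WT array and the highest transgenic array lay close together. WT averaged 7.62 ± 0.59 and the transgenic line averaged 6.14 ± 0.71 (log2 signal, mean ± SD, n = 3 each). The log2 difference between the transgenic line and WT was -1.48 (standard error 0.48), or 2.80-fold lower, and is given as a description because this gene was chosen for it. The study's thresholds were a change of 2-fold or more and a p of 0.05 or less, taken here as unadjusted. AT2G47880 was past both with limma, as were 1.61% of all 22746 probe sets in the same direction. It was not past them with the methods' t-test, where 0.791% of all probe sets were lower at these thresholds. It also lost its place without WT replicate 1 (log2 difference -1.16), OsHOX24 replicate 2 (-1.25) or OsHOX24 replicate 3 (-1.30). In whole seedlings, fewer cells of a type and less RNA per cell cannot be told apart.

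The remaining 5 members overlapped between genotypes. Non-overlap with the transgenic line below WT was seen for 4.13% of all probe sets and with the transgenic line above WT for 3.04%. At the study's thresholds with limma, 0.914% of all probe sets were higher in the transgenic line, and no member was. No probe set passed a Benjamini-Hochberg adjusted p of 0.05 with limma (0% of 22746) or with the methods' t-test, while before adjustment 785 probe sets had a limma p below 0.05 and 798 had such a p by the methods' t-test. Of the 5 members besides AT2G47880, which was chosen by its fall, 4 had a lower mean in the transgenic line, beside 53.6% of all probe sets. The median log2 difference of these 5 was -0.16, and that of all genes was -0.04. With AT2G47880 the median was -0.22, a value that holds the gene chosen for being low. This median of all 6 changed sign without WT replicate 2 (0.15) or OsHOX24 replicate 2 (0.31), and was -0.94 without OsHOX24 replicate 3.

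**Figure D1:**
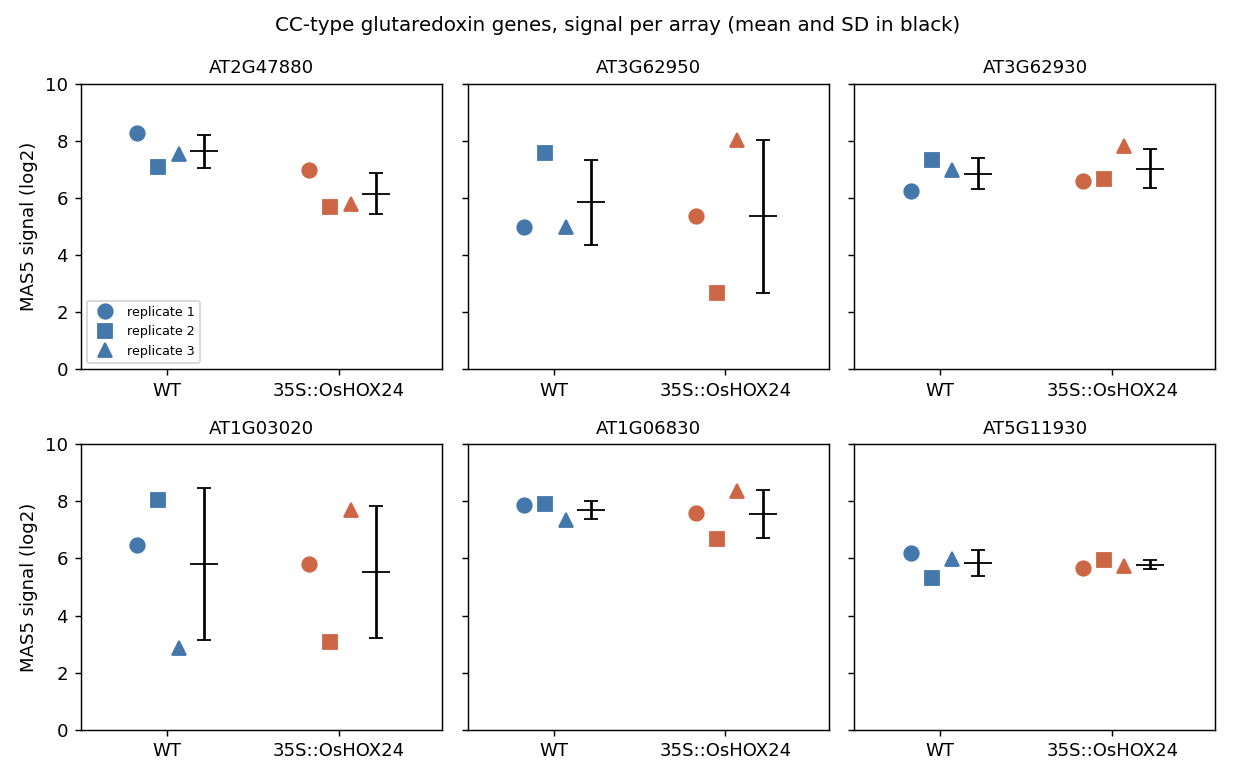
Log2 MAS5 signal of the 6 measured members (1 panel each) in the 3 WT and the 3 35S::OsHOX24 arrays. Symbols mark the replicate number, and the black bars are the mean and SD of each genotype. AT2G47880 lies lower in all transgenic arrays, from 5.67 to 6.96 against 7.09 to 8.26 in WT, whereas AT3G62950 and AT1G03020 spread widely within both genotypes.

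AT3G62950 and AT1G03020 varied most between arrays of one genotype. AT3G62950 had log2 signals of 4.97, 7.57 and 4.98 in WT and of 5.36, 2.66 and 8.02 in the transgenic line. For AT1G03020 the values were 6.48, 8.05 and 2.87 in WT and 5.81, 3.08 and 7.70 in the transgenic line. In both genes WT replicate 2 and OsHOX24 replicate 3 were the highest arrays, and each genotype held both high and low values. The range over the arrays was 41.0-fold for AT3G62950 and 36.3-fold for AT1G03020. Their pooled SD within genotypes exceeded that of 99.6% and 99.8% of the probe sets in the same quartile of mean signal. The genotype differences were -0.49 (log2, 95% interval -4.04 to 3.06) and -0.27 (-4.35 to 3.80), so even a change of several fold in either direction was not detectable with these arrays. Without single arrays, the difference ranged from -1.83 (without OsHOX24 replicate 3) to 0.85 (without OsHOX24 replicate 2) for AT3G62950. It ranged from -1.74 (without WT replicate 3) to 0.95 (without OsHOX24 replicate 2) for AT1G03020, and neither gene has a direction here.

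AT3G62930 and AT1G06830 had the same arrays on top with a smaller spread. In the RefSeq annotation, AT3G62930 and AT3G62950 are separated by 1 gene, as AT2G47880 adjoins AT2G47870. AT3G62930 was 6.24, 7.31 and 6.98 (log2) in WT and 6.59, 6.66 and 7.80 in the transgenic line, and its genotype difference was 0.17 (95% interval -0.94 to 1.28). AT1G06830 was 7.88, 7.91 and 7.34 in WT and 7.61, 6.67 and 8.35 in the transgenic line, with a difference of -0.16 (-1.30 to 0.98). The transgenic arrays of AT1G06830 reached above and below all of its WT arrays, and the genotypes of AT3G62930 overlapped. The difference of AT3G62930 was negative without WT replicate 1 (-0.13) or OsHOX24 replicate 3 (-0.22), and that of AT1G06830 was positive without OsHOX24 replicate 2 (0.27).

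AT5G11930 was the steadiest member. Its log2 signal was 6.19, 5.33 and 5.98 in WT and 5.67, 5.96 and 5.72 in the transgenic line, a range of 1.81-fold over all arrays. Here WT replicate 2 was the lowest array and not the highest. The genotype difference was -0.05 (log2, 95% interval -0.77 to 0.67), and it was the single one of the 17 measured CC-type genes whose interval lay within 2-fold on both sides.

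The order of the arrays recurred across the class. WT replicate 2 and OsHOX24 replicate 3 were the 2 highest of the 6 arrays for 4 of the 6 members and for 7 of the 11 other CC-type genes, in all 11 of 17, whereas this was so for 12.9% of all probe sets. These counts were made after the values had been seen, and no test was run on them. The 7 other genes were ROXY2, AT2G30540, AT5G18600, AT4G15700, AT4G15690, AT4G15680 and AT4G15660. ROXY2 encodes a glutaredoxin that acts with ROXY1 in anther development. Genes outside this order were AT2G47880, AT5G11930, ROXY1, AT3G62960, GRX480 and AT4G33040.

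AT4G15700, AT4G15690, AT4G15680 and AT4G15660 lie next to each other on chromosome 4 in the RefSeq annotation, together with AT4G15670, which was not analysed here. Their signals moved almost in parallel. AT4G15680 was 6.34, 9.64 and 7.49 (log2) in WT and 7.01, 7.34 and 9.75 in the transgenic line, and AT4G15690 was 5.49, 9.19 and 7.83 in WT and 6.60, 6.76 and 8.95 in the transgenic line. AT4G15660 had the widest range, from 3.39 in WT replicate 1 to 8.25 in WT replicate 2, or 29.2-fold. Over the 6 pairs of these genes, Pearson's r across 6 arrays was 0.90 to 0.99. Tandem copies can share hybridization, and its part in this likeness was not tested, although none of the 17 probe sets is marked as cross-hybridizing. AT5G18600, at another place in the genome, had the same 2 highest arrays. It was 9.66, 11.75 and 10.12 in WT and 9.73, 9.40 and 11.71 in the transgenic line.

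**Figure D2:**
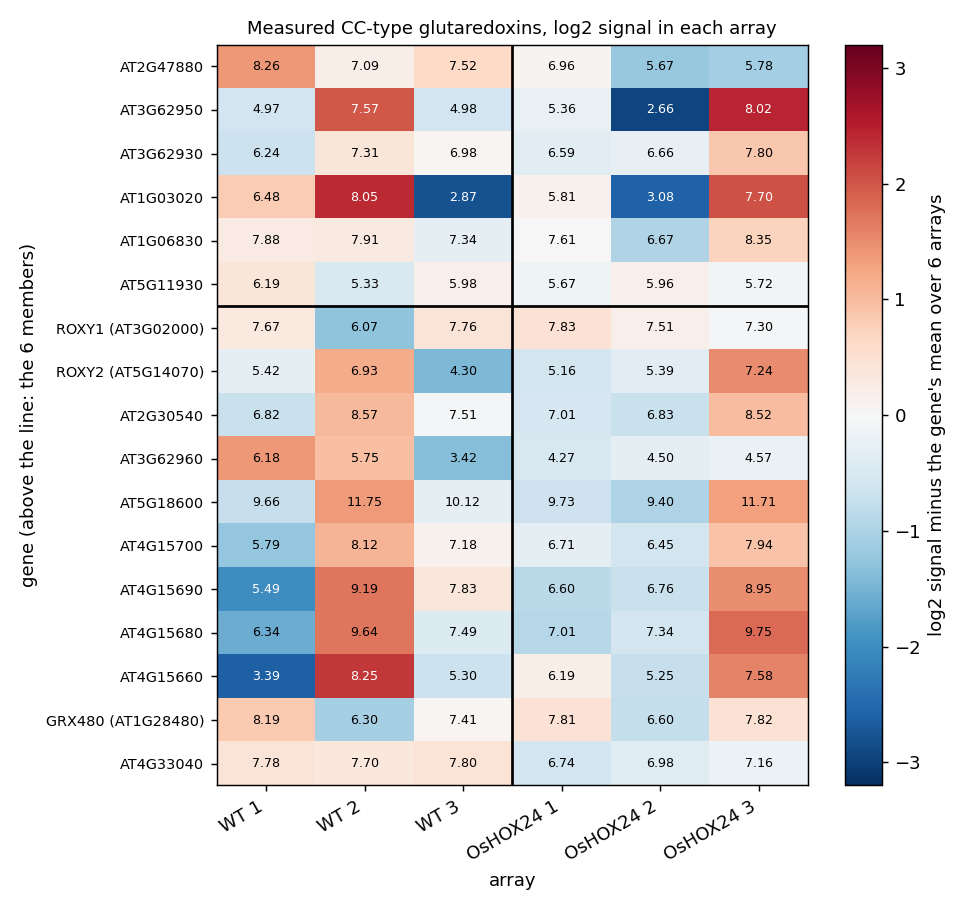
Log2 signal (printed in each cell) of the 17 measured CC-type glutaredoxin genes (rows; the 6 members above the horizontal line) in the 6 arrays (columns; WT left and 35S::OsHOX24 right of the vertical line). Colour gives the signal minus the mean of the gene over all arrays. For 11 genes the columns WT 2 and OsHOX24 3 are the highest, whereas AT2G47880 is highest in the WT columns.

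Some other measurements of the arrays moved with this order. Over all probe sets, WT replicate 2 and OsHOX24 replicate 3 were the most alike of the 15 pairs of arrays (r = 0.955, others 0.928 to 0.947). For the GAPDH control, the log2 signal at the 3' end minus that at the 5' end, larger where fewer 5' ends were copied, was 3.25, 1.63 and 4.80 in WT and 3.29, 3.63 and 2.39 in the transgenic line, so these same arrays had the lowest values. Its part in the order was not tested. Of 5 listed phloem genes, SWEET11, a sucrose transporter, could be named, and it does not single out companion cells. SWEET11 had log2 signals of 11.72, 12.39 and 11.64 in WT and 10.65, 10.72 and 12.79 in the transgenic line. Its linear signal was 3188 to 5379 in WT and 1608 to 7102 in the transgenic line. Of 6 root markers, the beta-glucosidase gene PYK10 and the root hair expansin gene EXPA7 could be named, and their summed linear signal was 11084 to 15684 in WT and 11338 to 17802 in the transgenic line. This sum rests mostly on PYK10 (mean log2 signal 13.68, against 4.41 for EXPA7). EXPA7 was also highest in WT replicate 2 (5.47) and OsHOX24 replicate 3 (5.45), while PYK10 was highest in OsHOX24 replicate 3 (14.12) and WT replicate 1 (13.94). The mean of EXPA7 lay in the lowest quartile of signal, where the median SD of all probe sets was 1.17. No listed green shoot or flower marker could be named. Of 22 green shoot genes listed after the files were read, LHCB4.1, PSAN and RCA could be, with log2 signals of 13.23 to 14.74. LHCB4.1 was lowest in WT replicate 2 (13.91) and OsHOX24 replicate 3 (14.07). PSAN was lowest in WT replicate 2 (13.23) and OsHOX24 replicate 2 (13.35). RCA was lowest in WT replicate 1 (14.28) and OsHOX24 replicate 3 (14.37). None of the markers named here was listed at 0. The part of cell composition in the order was not tested.

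Covariation across the 6 arrays is given as a description, since the arrays share labelling, scaling and genotype. AT2G47880 followed no other member closely. Its Pearson r with the remaining 5 members ran from -0.53 (AT3G62930, Spearman's rho -0.37) to 0.29 (AT5G11930, rho 0.43). After subtraction of the genotype means, the corresponding r ran from -0.68 to 0.37. By contrast, AT3G62950 and AT1G06830 had r = 0.91 (rho 0.83), and AT1G03020 and AT1G06830 had r = 0.87 (rho 0.89). AT3G62930 lay close to the chromosome 4 genes, with r = 0.95 (rho 1) with AT4G15680. AT5G11930 ran opposite to them, with r = -0.93 (rho -0.89) with AT4G15660. Among deviations from the genotype means, AT2G47880 was nearest to GRX480 (r = 0.75) and ROXY1 (r = 0.64) of the class, and opposite to AT4G15690 (r = -0.74). Its highest r in the class over the log2 signals was with AT4G33040 (0.68). For that pair the r of the deviations was -0.56.

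**Figure D3:**
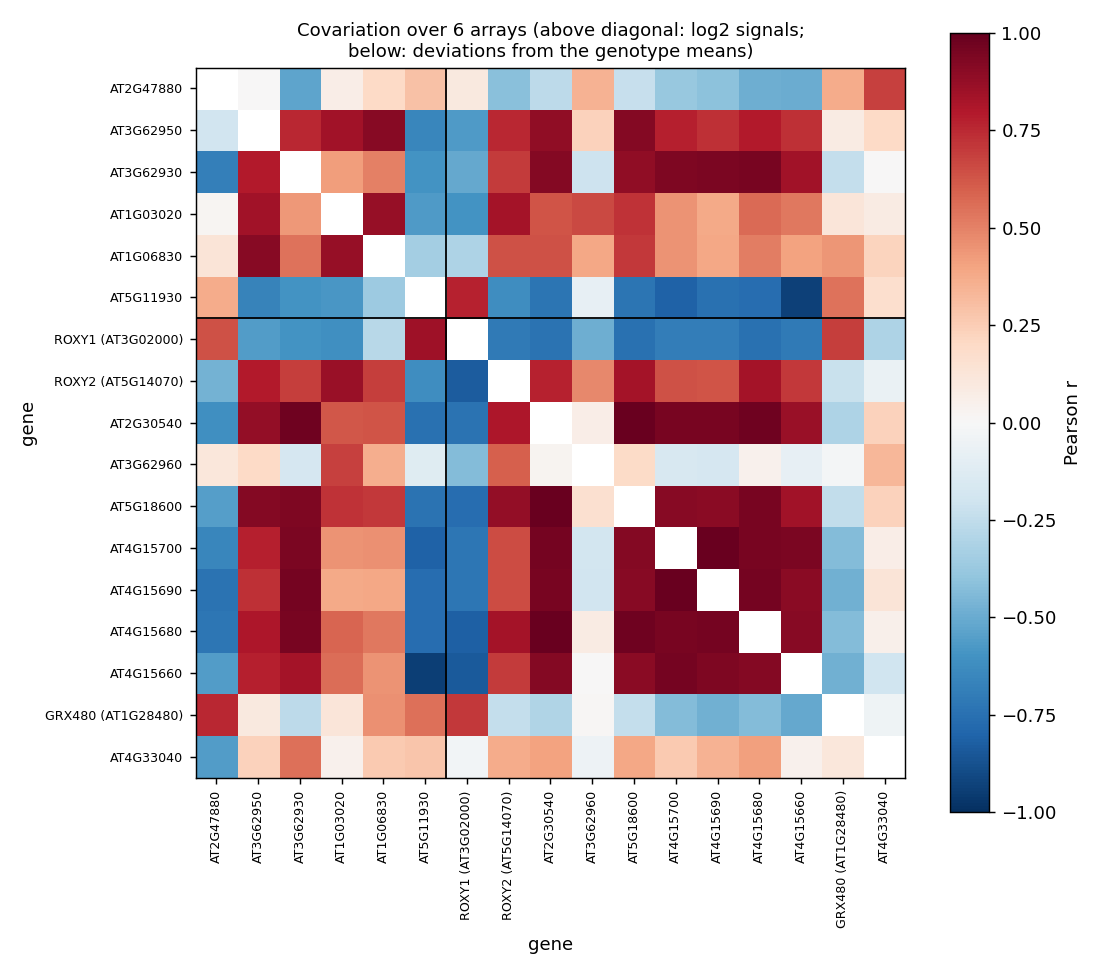
Pearson r between each pair of the 17 measured CC-type genes over 6 arrays, from log2 signals above the diagonal and from deviations from the genotype means below it; lines separate the 6 members from the other genes. The row of AT2G47880 holds values from -0.53 to 0.68 above the diagonal, whereas the 4 neighbouring genes of chromosome 4 have 0.90 to 0.99 with each other.

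The genes most like AT2G47880 were sought among 6017 genes outside the members. Their mean signal lay in the upper part of the array, above log2 7.29. The mean of AT2G47880 itself was 6.88, so genes at its own signal level were left out. Over the 6 arrays, the highest r values were those of AT3G60980 (0.978), AT5G44060 (0.961), AT4G17670 (0.948), AT4G27900 (0.948) and BZIP53 (0.945), a bZIP transcription factor gene. Each of these had a lower mean in the transgenic line, with log2 differences of -0.39 to -0.73, a direction that follows from the way they were picked. For deviations from the genotype means, the closest were AT1G28390 (0.991), AT1G67720 (0.990), AT3G63290 (0.988), AT5G66070 (0.987) and AT3G25600 (0.987). Their log2 differences between genotypes were -0.40 to 0.00. In AT3G25600 the signals were 10.94, 9.53 and 10.12 in WT and 10.57, 9.45 and 9.38 in the transgenic line, so replicate 1 was highest in each genotype, as for AT2G47880.

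Of the 11 CC-type genes outside the starting set, none was past the study's thresholds. AT4G33040 was the 1 gene among these 11 without overlap between genotypes. It lay lower in the transgenic line, a pattern of 4.13% of all probe sets. Its log2 signals were 7.78, 7.70 and 7.80 in WT and 6.74, 6.98 and 7.16 in the transgenic line. Its log2 difference was -0.80 (standard error 0.22), or 1.74-fold lower, with an unadjusted p of 0.0108 and an adjusted p of 1 over all probe sets with limma. An exact 2-sided permutation test of 3 against 3 arrays cannot give less than p = 0.1. Its log2 difference was -0.90 to -0.68 over 18 alternatives. AT4G33040 and AT5G11930 were the genes of the class with an SD below the median of their quartile of signal, and 15 of 17 were above it. ROXY1, which acts in petal development, and GRX480, a salicylic acid-induced glutaredoxin that represses jasmonic acid-responsive genes, had log2 differences of 0.38 (95% interval -0.85 to 1.61) and 0.11 (-1.33 to 1.54). Over the 11 genes, 5 had a lower and 6 a higher mean, the differences ran from -0.80 to 0.70, and the median was 0.01. ROXY2, AT4G15660 and AT4G15680 were 0.38, 0.70 and 0.21, and AT3G62960, AT5G18600, AT2G30540, AT4G15690 and AT4G15700 were -0.67, -0.23, -0.18, -0.07 and 0.01.

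**Figure D4:**
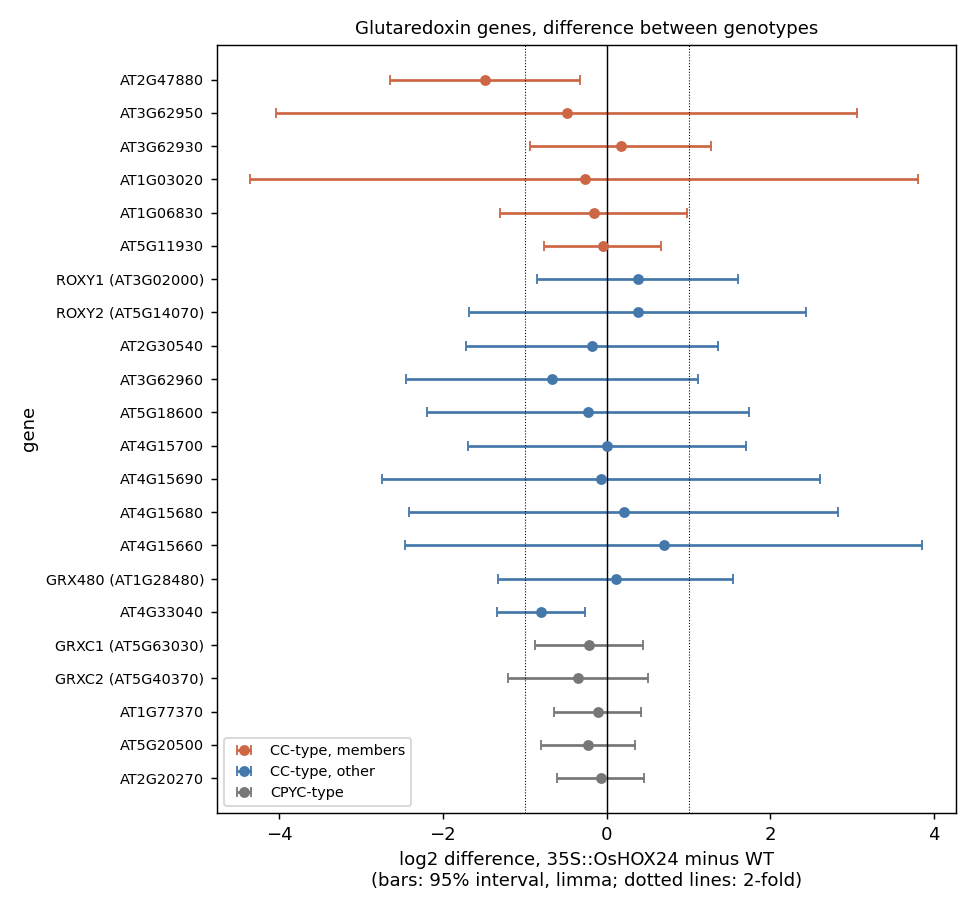
Log2 difference between 35S::OsHOX24 and WT (points) with the 95% interval from limma (bars) for the 6 members, the 11 other CC-type and the 5 CPYC-type glutaredoxin genes measured. The intervals of AT2G47880 (-2.65 to -0.32) and AT4G33040 (-1.34 to -0.26) do not reach 0, and those of the other 20 genes do.

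Glutaredoxins of the CPYC class, which hold another active site and act as general glutathione-dependent reductases, gave narrower values. Of 6 listed genes, 5 were measured, and none was past the thresholds. GRXC1 was 10.00, 9.47 and 10.07 (log2) in WT and 9.61, 9.87 and 9.44 in the transgenic line, and GRXC2 was 12.27, 12.10 and 11.30 in WT and 11.38, 11.31 and 11.92 in the transgenic line. Among the 5, AT1G77370 alone had WT replicate 2 (10.12) and OsHOX24 replicate 3 (10.07) as its highest arrays. The genotypes overlapped in all 5 genes. All 5 had a lower mean in the transgenic line, as did 53.6% of all probe sets, and the 95% interval of each held 0. Their log2 differences were -0.07 to -0.35, and their median was -0.21, beside -0.04 for all genes. The median pooled SD was 0.20 for the CPYC-type genes, 0.65 for the 6 members and 1.06 for the 11 other CC-type genes. These sets also differed in signal: all 5 CPYC-type genes lay in the highest quartile of mean signal, where the median SD of all probe sets was 0.29, and all CC-type genes but AT5G18600 lay in the middle quartiles, where it was 0.48 and 0.34. The part of signal level in this contrast was not tested. Listed CGFS-type glutaredoxins (4 genes) and TGA factors (10 genes) were not analysed here.

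Genes of the pathways in which CC-type glutaredoxins act were also read, and none of those measured was past the thresholds. A list of 12 genes for CEP peptides, their receptors, CEPH and nitrate transport belongs to the signalling of nitrogen demand. Of these, 3 were measured, all with means below the median of all probe sets. AT4G32950, AT5G66815 and AT2G23440 had log2 differences of 1.21, 1.08 and 0.26 with standard errors of 0.93, 1.13 and 1.38, so they carry no direction. Of 21 genes of the nitrate response and nitrate assimilation, 3 were measured, and AT1G68670, AT1G25550 and AT3G25790 had 0.20, 0.16 and -0.16. None of these 3 had WT replicate 2 and OsHOX24 replicate 3 as its highest arrays.

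Of 4 genes of glutathione synthesis and reduction, both glutathione reductase genes were measured. GR1, the reductase of cytosol and peroxisome, was 9.62, 10.34 and 9.38 (log2) in WT and 9.48, 9.21 and 10.22 in the transgenic line, again with WT replicate 2 and OsHOX24 replicate 3 on top, and its difference was -0.15. The gene GR, for the reductase of plastids and mitochondria, had a difference of 0.30. Of 18 genes for thioredoxins and their reductases, 6 were measured, with differences of -0.20 to 0.42. Those of the plastid thioredoxin genes ty2, TY1 and ATHM2 were 0.31, -0.20 and -0.12. TY1 (7.91 and 7.73) and THX (12.50 and 12.49) were highest in WT replicate 2 and OsHOX24 replicate 3. The other measured genes of this list were not. NTRC, a plastid thioredoxin reductase with its own thioredoxin domain, did not overlap between genotypes. It lay higher in the transgenic line, a pattern of 3.04% of all probe sets. Its log2 signals were 10.73, 10.64 and 10.74 in WT and 10.92, 11.36 and 11.10 in the transgenic line. Its difference was 0.42 (95% interval -0.12 to 0.97, adjusted p of 1 with limma). Of 8 genes of salicylic and jasmonic acid responses, the defensin gene PDF1.2, a target of jasmonic acid signalling, was measured and had a difference of 0.03, with 6.72 to 8.21 in WT and 6.71 to 7.88 in the transgenic line.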

How the data were processed

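The 6 arrays were assigned to WT or OsHOX24 from the sample titles. The authors deposited log2 signals from MAS5, whose version is not given in the sources used here, scaled per array (2% trimmed mean of the linear signals 500.05 to 500.06, medians 7.24 to 7.42). Values listed at 0, 163 to 511 per array, are the lowest signals. The number of arrays limits the precision.

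After leaving out 64 control probe sets, 22746 were compared with limma 3.58.1 in R 4.3.3 (lmFit, eBayes, no covariate) with Benjamini-Hochberg adjustment, without further normalization or filter. The same values were also compared by the methods' t-test. Intervals are 95% limma intervals. The platform table named 13513 probe sets with 1 gene, of which 13436 matched RefSeq (TAIR10.1) by gene ID, 503 with several, and 8730 were unnamed; the probe set with the highest mean stands for a gene. Coordinates are not printed, and promoter motifs and protein sequences were not analysed here.

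The members, lists and tests were chosen with earlier results of these data known. Named were all measured glutaredoxins, up to 4 genes per other list by lowest p, and the 5 genes most like AT2G47880 by each of 2 measures. The green shoot genes, the count of array orders and the GAPDH covariate were added after the values were seen. Alternatives were a replicate block, leaving out arrays, the mean of a gene's probe sets, no cross-hybridizing probe sets, a filter at the 40th percentile of mean signal, log2(signal + 16), arrays centred on their median or quantile normalized, and in the test the methods' t-test, array weights or a variance trend. Scripts were tested on simulated data.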

Additional observations from a re-analysis of the deposited data

How the results depend on the processing

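AT2G47880 was lower in the transgenic line under all 18 alternatives and stayed past the study's thresholds in 14. The difference was -1.46 with the GAPDH covariate, which was added after seeing the data. Since AT2G47880 was chosen by this difference on the same arrays, these counts are a description and not support. With the methods' t-test its log2 difference was -1.48 and the unadjusted p was above the threshold; leaving out 1 array at a time, the difference ranged from -1.89 to -1.16. Over the same omissions, the median of the members ranged from -0.94 to 0.31. The number of members without overlap ranged from 1 to 2, the second being AT5G11930 without WT replicate 2. Its nearest arrays were then 5.98 in WT and 5.96 in the transgenic line. Non-overlap is easier to reach with fewer arrays, and its share over all probe sets was not counted for these fits. With quantile normalization, 303 probe sets were lower and 264 higher, against 367 and 208 as deposited, and median centring gave 343 and 226. The counts were 180 lower and 112 higher with the methods' t-test, 85 and 29 with log2(signal + 16), and 40 and 17 above the 40th percentile of signal, where fewer probe sets were tested. Without single arrays, 347 to 494 were lower and 220 to 316 higher (316 without WT replicate 1), and 324 were higher without replicate 1 of both genotypes. The cause of these moves was not tested. The replicate number did not pair the arrays throughout: number 1 reached the r of 0.1 set for a pair, and numbers 2 and 3 did not. Deviations from the genotype means correlated at 0.106, -0.198 and -0.178 for numbers 1, 2 and 3 over all probe sets. Over those above the median signal the values were 0.465, -0.495 and -0.534. Over all probe sets, WT replicate 2 correlated best with OsHOX24 replicate 3 (0.289). With the replicate block, 419 probe sets were lower and 259 higher and AT2G47880 stayed at -1.48. Among the remaining members, differences changed sign under 1 to 5 alternatives each. The 11 CC-type genes led by WT replicate 2 and OsHOX24 replicate 3 were also 11 after quantile normalization and median centring. AT3G62950, AT1G03020 and AT5G11930 are left out above the 40th percentile, so no value could be given there.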
